A study of Caenorhabditis elegans with 15 samples.

Results

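A set of 10 genes that are transcribed in the Caenorhabditis elegans embryo were followed through RNA from young adult animals. They are 10 of the 47111 genes in the deposited count table and were taken by symbol: the early zygotic genes pes-10, end-1, end-3, tbx-37, tbx-38, ceh-51, hlh-25, hlh-27 and sdz-28, and the hatching protease gene hch-1. All 10 were found in the table. They were selected on their role and on their levels in these same libraries, so their levels and fold changes are given here as a description and without a test.

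The 15 libraries came from 5 genotypes with 3 libraries each, all grown at 20 °C on Escherichia coli OP50 and harvested as young adults after synchronisation as first-stage larvae. The genotypes were puf-8(ok302), puf-8(ust221), puf-8(ust222), puf-8(ust223) and wild type N2, the standard laboratory strain. The product of puf-8, a member of the PUF family, binds mRNA and acts in the germline. The labels name no transgene and do not say how the alleles were made, whether a strain was 1 line or outcrossed, or whether replicates were grown separately, so p-values measure only the spread between these libraries, which may be technical. Animals were harvested in bulk, and the labels do not say whether embryos were still inside them or had been laid.

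C. elegans hermaphrodites fertilise their oocytes internally and hold the embryos in the uterus for some time before laying them, so RNA of a whole adult can include embryonic RNA. The first embryonic divisions run on RNA and protein from the oocyte, and a small set of genes is then switched on by the embryo itself in particular blastomeres. Among the first such genes are the endoderm factors, which act below maternal SKN-1, and targets of Notch signalling in the anterior blastomeres. In such bulk samples fewer embryos, fewer animals that hold embryos and less RNA per embryo cannot be told apart.

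Library totals ranged from 20969800 to 29352254 counts. The targeted gene puf-8 had 7, 11 and 3 counts in ok302, and 737 to 5008 in the other 12 libraries. All 8 adult marker genes, 6 vitellogenins with col-19 and bli-2, had counts in every library. Their summed level was 13642 to 67647 CPM (the depth-scaled read count, with library sizes scaled by edgeR's TMM method). Single genes of the sum differed, and bli-2 had 49.8 ± 4.02 CPM in ok302 and 1.01 ± 0.975 in N2 (SD, n = 3 each). Replicates 1 and 3 of ust222 and replicate 1 of N2 stood apart from the other 12 libraries. Their 22 sperm genes summed to 28.2, 28.5 and 22.6 CPM, against 95.9 to 325 CPM in the other 12, and 7, 7 and 8 of the 22 were at 0 there and none elsewhere. Their 25 molting and larval cuticle genes summed to 2467, 2417 and 2488 CPM, against 148 CPM in ust222 replicate 2, and 186 and 225 CPM in N2 replicates 2 and 3. The ok302 libraries, at 1657 to 2030 CPM, were also high in molting genes, so the sperm genes set these 3 libraries apart from the other 12 more clearly. Like sums can rest on different genes. In the molting list bli-1 had 24.7 ± 2.79 CPM in ok302 and 1.21 ± 1.14 in N2, and sqt-3 250 ± 23.5 and 345 ± 543 (SD, n = 3 each). Values are therefore also given for the 12 other libraries, a choice made after seeing the data.

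The 9 early zygotic genes together were highest in ust223 and in those 3 libraries, and lowest in ust221. In CPM the sum was 4.44, 3.53 and 2.88 in ok302, 1.22, 1.23 and 0.866 in ust221, 8.92, 1.02 and 11.8 in ust222, 10.7, 10.6 and 7.15 in ust223, and 14.9, 4.44 and 3.41 in N2. No ust221 library reached the lowest N2 or ok302 library, and ust222 replicate 2 lay within the range of ust221. All 3 ust223 libraries lay above N2 replicates 2 and 3 and below N2 replicate 1. Group means were 3.61 ± 0.783 CPM in ok302, 1.1 ± 0.206 in ust221, 7.26 ± 5.60 in ust222, 9.48 ± 2.02 in ust223 and 7.60 ± 6.38 in N2 (SD, n = 3 each). In order of level ust221 and ok302 were followed by ust222, N2 and ust223, and the last 3 means lay within the SD of ust222 and N2. This order rests on the 3 libraries that stood apart. Pooled over libraries, the sum over that of N2 was 0.456 in ok302, 0.135 in ust221, 0.948 in ust222 and 1.19 in ust223, and in the 12 libraries it was 0.895, 0.264, 0.254 (1 library) and 2.34, so that ok302 then lay near N2 and ust222 at the level of ust221. The sums rest on few reads, from 18 counts (0.723 to 1.93 CPM, exact Poisson 95% interval, counting error only) in ust221 replicate 1 to 382 counts (13.5 to 16.5 CPM) in N2 replicate 1.

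**Figure D1:**
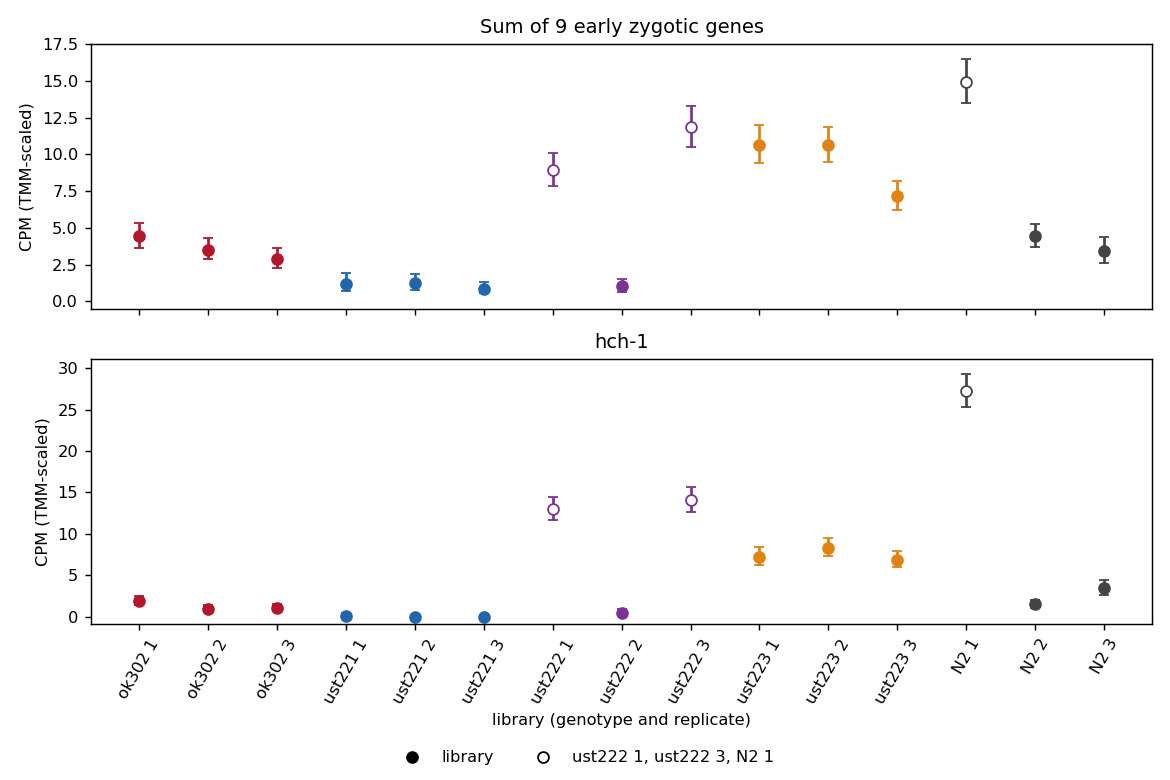
Summed level of the 9 early zygotic genes (top) and level of hch-1 (bottom) in CPM for each of the 15 libraries, with exact Poisson 95% intervals that cover counting error only. Open points mark ust222 replicates 1 and 3 and N2 replicate 1, which with the 3 ust223 libraries hold the 6 highest values of both panels.

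The most abundant of the 9 was sdz-28, named for zygotic transcription that depends on the maternal factor SKN-1; its protein carries MATH and BTB domains in the deposited annotation (chromosome II, 2131070 to 2132475, plus strand). It stood at 1.80, 1.53 and 1.01 CPM in ok302, 0.407, 0.167 and 0.414 CPM in ust221, 4.74, 0.232 and 5.64 CPM in ust222, 3.90, 4.51 and 3.52 CPM in ust223, and 5.87, 1.65 and 0.649 CPM in N2. The ust221 libraries lay below all 3 N2 libraries. The log2 fold change was -0.91 ± 0.87 (standard error) in ok302, -3.02 ± 0.97 in ust221, 0.37 ± 0.86 in ust222 and 0.54 ± 0.86 in ust223. In the 12 libraries it was 0.32 ± 0.48 in ok302, -1.71 ± 0.53 in ust221, -2.18 ± 0.81 in ust222 (1 library) and 1.86 ± 0.48 in ust223, with the sign turned in ok302 and ust222.

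A similar order was seen for pes-10, one of the first genes transcribed in somatic blastomeres, whose function is not known (chromosome II, 12846203 to 12847836, minus strand). It had 1.09, 0.291 and 0.203 CPM in ok302, 0.0678, 0 and 0 CPM in ust221, 1.31, 0 and 1.46 CPM in ust222, 3.09, 2.97 and 1.63 CPM in ust223, and 2.82, 1.04 and 0.595 CPM in N2. Every ust223 library was above N2 replicates 2 and 3, and ust221 held 1 count of pes-10 in all, against 112 in N2. Pooled over libraries the ratio of ust221 to N2 was 0.0109 (exact conditional binomial 95% interval 0.000272 to 0.0617, counting error only), and against the 40 counts of N2 replicates 2 and 3 it was 0.0196 (0.000484 to 0.116). The log2 fold change of pes-10 was -1.49 ± 1.08 in ok302 and 0.78 ± 1.04 in ust223, and in the 12 libraries -0.64 ± 0.72 and 1.73 ± 0.72.

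The homeobox gene ceh-51 acts in the MS lineage, which makes mesoderm, together with the T-box gene tbx-35 (chromosome V, 18874133 to 18876169, plus strand). It had 0.126, 0.400 and 0.324 CPM in ok302, 0.542, 0.223 and 0.0753 CPM in ust221, 1.38, 0.186 and 2.84 CPM in ust222, 1.66, 1.81 and 1.13 CPM in ust223, and 2.97, 0.501 and 1.30 CPM in N2. All 3 ok302 libraries lay below all 3 N2 libraries, and ust221 overlapped N2. The log2 fold change of ceh-51 was -2.46 ± 0.94 in ok302 and -2.55 ± 0.96 in ust221, or -1.61 ± 0.74 and -1.69 ± 0.77 in the 12 libraries. In the deposited coordinates the gene overlaps emb-4 on the opposite strand, which had 731 to 2462 counts per library, and whether counting used strand is not given in the sources used here. In the Ensembl 115 annotation of WBcel235 the exons of ceh-51 and emb-4 share 0 bases, but ceh-51 ends at 18875982 there with 780 exon bases, against 967 in the deposited table, so this does not cover the counts used here.

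The GATA factors END-1 and END-3 specify the endoderm founder cell E. Their genes lie 27628 bases apart on chromosome V, end-1 at 13985137 to 13987072 and end-3 at 14014701 to 14015850, both on the plus strand. For end-3 there were 11, 10 and 9 counts in ok302, 2, 11 and 6 in ust221, 12, 0 and 8 in ust222, 7, 1 and 7 in ust223, and 16, 18 and 6 in N2. Unlike sdz-28 and pes-10, end-3 was not highest in ust223, where its log2 fold change was -1.56 ± 0.98 (-1.35 ± 0.89 in the 12 libraries). For end-1 there were 7, 3 and 18 counts in ok302, 0, 4 and 0 in ust221, 7, 6 and 3 in ust222, 8, 12 and 3 in ust223, and 19, 3 and 2 in N2, and the groups overlapped. At 0 to 19 counts per library, depth limits any comparison of these 2 genes.

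TBX-37 and TBX-38 are closely related T-box factors that act redundantly in the ABa lineage, which makes the anterior pharynx. Their genes lie on chromosome III, tbx-37 at 11224800 to 11227125 and tbx-38 at 11784147 to 11786052, both on the minus strand. For tbx-38 there were 5, 15 and 0 counts in ok302, 0 in each ust221 library, 11, 0 and 14 in ust222, 13, 14 and 6 in ust223, and 22, 1 and 0 in N2. Against a floor of 3 counts over the ust221 group, tbx-38 was at least 6.31-fold lower in ust221 than in N2, and with N2 replicates 2 and 3 alone, which held 1 count between them, no bound could be set. For tbx-37 there were 6, 3 and 0 counts in ok302, 1, 0 and 1 in ust221, 5, 7 and 9 in ust222, 14, 3 and 10 in ust223, and 18, 5 and 0 in N2. Reads from the pair may be split between the copies, and neither gene was above 22 counts in any library.

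The fewest counts were those of hlh-25 and hlh-27, near-identical genes of the REF-1 family of helix-loop-helix factors, which are targets of Notch signalling in the early embryo. They lie 2931 bases apart on chromosome II, hlh-25 at 5535240 to 5536149 on the plus strand and hlh-27 at 5539081 to 5540211 on the minus strand, with their relative hlh-26 beside them. Over all 15 libraries hlh-25 had 29 counts and hlh-27 had 49. They had 7 and 9 counts in ok302, 0 and 3 in ust221, 1 and 14 in ust222, 12 and 7 in ust223, and 9 and 16 in N2. With at most 10 counts in a library, neither gene gave a usable level for a single library. Reads that match both genes may have been split or left out, so few counts need not mean little RNA.

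**Figure D2:**
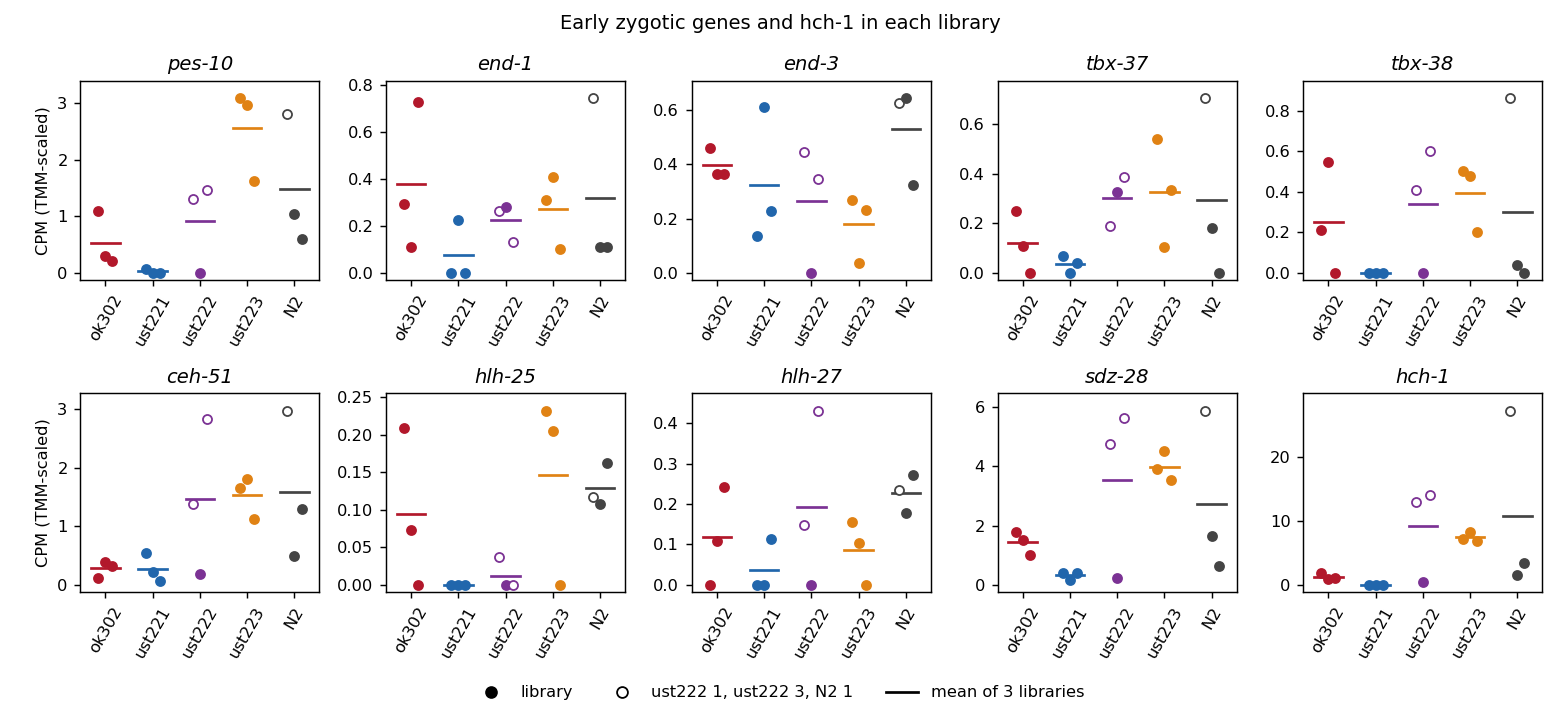
Level of each of the 10 genes in CPM by genotype (ok302, ust221, ust222, ust223, N2). Points are libraries, open points are ust222 replicates 1 and 3 and N2 replicate 1, and lines are means of 3 libraries; ust221 lies at or near 0 for pes-10, tbx-38 (0 counts), hlh-25 (0 counts) and hch-1 (1 count).

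The hatching protease gene hch-1 showed the widest range. HCH-1 is a secreted astacin-family metalloprotease needed to digest the eggshell at hatching, late in embryogenesis, and also for a neuroblast migration (chromosome X, 14696412 to 14699977, minus strand). It had 44, 26 and 26 counts in ok302, 1, 0 and 0 in ust221, 350, 10 and 327 in ust222, 188, 244 and 207 in ust223, and 697, 42 and 63 in N2. In CPM these were 1.84, 0.946 and 1.05 in ok302, 0.0678, 0 and 0 in ust221, 13.1, 0.465 and 14.1 in ust222, 7.26, 8.34 and 6.88 in ust223, and 27.3, 1.5 and 3.41 in N2. Every ust221 library lay below the other 12, and every ust223 library lay above N2 replicates 2 and 3 and below N2 replicate 1. Group means were 1.28 ± 0.489 CPM in ok302, 0.0226 ± 0.0391 in ust221, 9.20 ± 7.58 in ust222, 7.49 ± 0.758 in ust223 and 10.7 ± 14.4 in N2 (SD, n = 3 each), the SD of N2 being larger than its mean.

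Against N2 the direction of hch-1 in ust223 turned on N2 replicate 1. Its log2 fold change in ust223 was -0.52 ± 1.02 with all libraries and 1.72 ± 0.46 in the 12. In ust222 it was -0.22 ± 1.02 with all libraries, and the 1 remaining ust222 library stood at -2.25 ± 0.73 in the 12 libraries, on the assumption that it varies like the other groups. In ok302 hch-1 stood at -3.06 ± 1.11 with all libraries and -0.92 ± 0.45 in the 12. In ust221, with 1 count against 802 in N2, the pooled ratio was 0.00152 (95% interval 3.83e-05 to 0.00847, counting error only), and 0.00747 (0.000187 to 0.0425) against the 105 counts of N2 replicates 2 and 3.

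**Figure D3:**
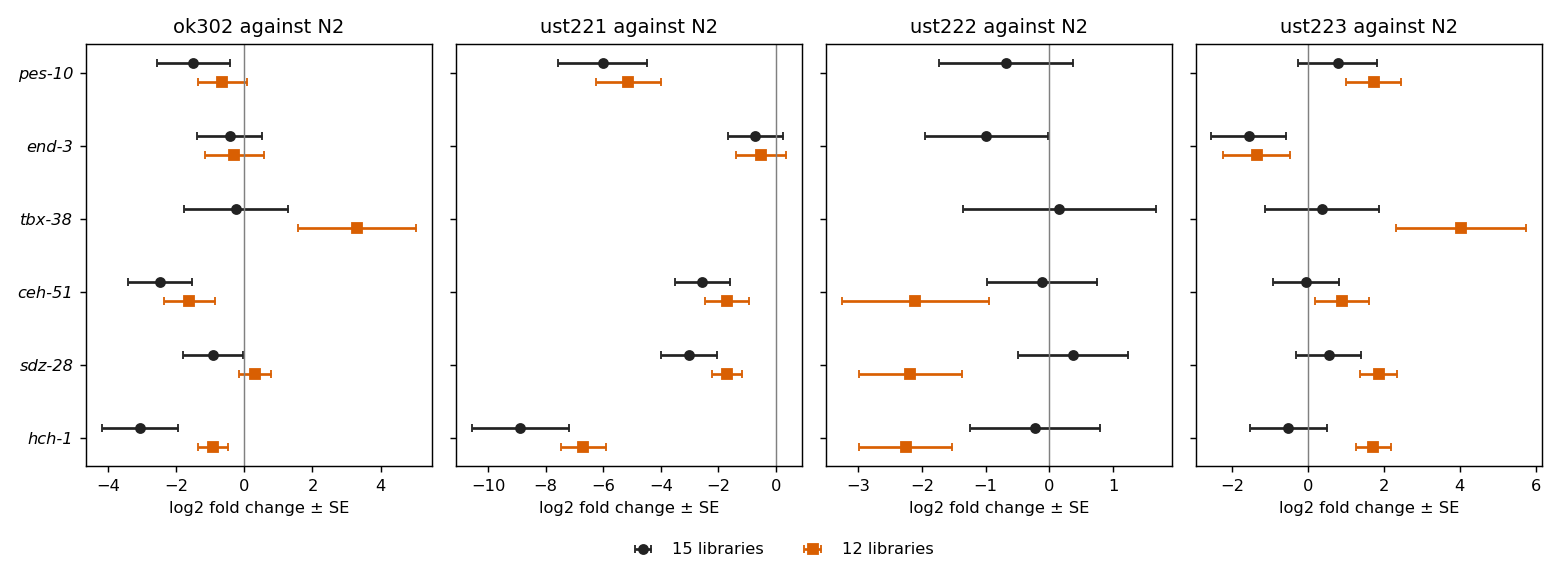
Fitted log2 fold change of each allele over N2, with its standard error, for the 6 genes that passed the filter on low counts, with all 15 libraries (circles) and with 12 libraries (squares); alleles with 0 counts of a gene are not drawn. In ust223 hch-1 stood at -0.52 with 15 libraries and 1.72 with 12, and sdz-28 at 0.54 and 1.86.

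Only pes-10, end-3, tbx-38, ceh-51, sdz-28 and hch-1 passed the filter on low counts, and end-1, tbx-37, hlh-25 and hlh-27 did not. Per kilobase of gene model, averaged over 15 libraries, the levels were 2.97 CPM for hch-1, 1.99 for sdz-28, 1.07 for ceh-51, 0.764 for pes-10, 0.465 for end-3, 0.343 for end-1, 0.262 for tbx-38, 0.208 for tbx-37, 0.129 for hlh-27 and 0.0944 for hlh-25. Among the 24443 genes with at least 1 count, 54.7% had a lower level per kilobase than hch-1 and 16.1% a lower one than hlh-25. In per-kilobase level the 10 genes thus ran from just above the middle of these genes to the lower part of their range.

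The early genes and hch-1 followed each other across libraries, but not in a fixed proportion. Pearson's r of log2 CPM between hch-1 and the sum of the 9 was 0.959 over 15 libraries, which fall into high, middle and low sets and share their depth and scaling, and it is given as a description. Of the 9, sdz-28 (r = 0.927), pes-10 (0.926) and tbx-38 (0.829) followed the sum of the other 8 most closely, while end-3 (0.159) and end-1 (0.363) did so least. The share of hch-1 in the counts of all 10 genes was 29.3%, 21.1% and 26.8% in ok302, 5.26%, 0% and 0% in ust221, 59.4%, 31.3% and 54.3% in ust222, 40.5%, 44% and 49.1% in ust223, and 64.6%, 25.3% and 50% in N2. In ust221 replicates 2 and 3, 0 of 22 and 0 of 23 counts were hch-1, and the exact binomial 95% intervals, which cover counting error only, reach 15.4% and 14.8%.

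**Figure D4:**
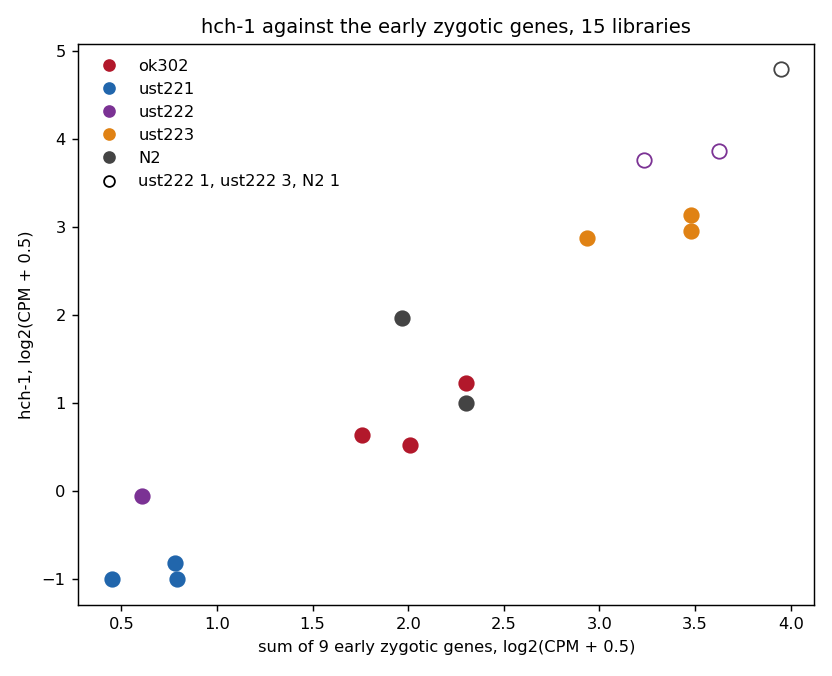
Level of hch-1 against the summed level of the 9 early zygotic genes, both as log2(CPM + 0.5), 1 point per library and coloured by genotype. The 3 ust221 libraries and ust222 replicate 2 lie at the lower left, ok302 with N2 replicates 2 and 3 in the middle, and ust223, ust222 replicates 1 and 3 and N2 replicate 1 at the upper right.

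Among 12018 genes with a symbol and a mean of at least 50 counts, those most like hch-1 over the 15 libraries were vet-6 (r = 0.990), Y71F9AL.7 (0.985), T09B4.5 (0.983), cht-1 (0.980) and C08F1.10 (0.974). The name of vet-6 stands for very early transcript, and cht-1 encodes a chitinase-family protein; chitin is a component of the eggshell. For vet-6 the levels were 1.88, 1.20 and 1.38 CPM in ok302, 0.542, 0.223 and 0.264 CPM in ust221, 7.80, 1.21 and 7.06 CPM in ust222, 4.94, 5.16 and 4.12 CPM in ust223, and 11.3, 1.72 and 2.11 CPM in N2. The genes most like the sum of the 9 were Y82E9BR.17 (0.975), C08F1.6 (0.972), the cuticle collagen gene dpy-14 (0.971), the JmjC domain gene jmjd-3.2 (0.971) and clec-266 (0.968). For dpy-14 the range was 1.00 CPM in ust221 replicate 2 to 345 CPM in N2 replicate 1.

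Other genes, outside the 10 but in lists also chosen with earlier results of these data known, were tested in the same model. They were 5 lists of genes with a role or expression in the embryo (sdz, vet, other pes, zygotic lineage and maternal regulators). With them were 3 protein families taken as paralogs of the 10 (REF-1, T-box and astacin), whose genes need not be embryonic. RNA of genes in any of the 8 lists need not come from embryos. A total of 149 genes in the 8 lists were matched and 127 were tested. In ok302, 9 rose and 28 fell (37 of 127, 29.1%), where 23.8% of all tested genes changed (8.45% higher, 15.4% lower; edgeR, adjusted p under 0.05, n = 3 per genotype). Of these, 7 of the 9 that rose were astacin genes and 21 of the 28 that fell were maternal regulators. In ust221, 1 rose and 13 fell, 7 of the 13 being maternal regulators (11%), where 1.79% of all genes changed (1.03% higher, 0.761% lower). In ust222, 0 of 127 were called by edgeR (23 at an unadjusted p under 0.05 and 3 by DESeq2), where 0.00581% of all genes changed. At an unadjusted p under 0.05 stood 6388 of all 17217 genes in ok302, 3649 in ust221, 1376 in ust222 and 1686 in ust223. In ust223, 1 rose (0.787%), where 1.35% of all genes changed (1.13% higher, 0.227% lower). With library totals in place of scaled sizes the median log2 fold change of all genes was 0.30 in ok302 and -0.34 in ust221, where it was 0.10 and -0.09 with scaled sizes. The split of all called genes was then 1857 higher and 1673 lower in ok302 (1454 and 2650 with scaled sizes) and 204 and 929 in ust221 (177 and 131), and that of the 8 lists 11 and 22 in ok302 and 0 and 26 in ust221. The ust221 count of 14 was 23, 6 and 4 without N2 replicates 1, 2 and 3, 8 and 3 without ust221 replicates 1 and 2, and 0 with only its 6 libraries. In the 12 libraries the lists held 38 higher and 31 lower in ok302, where 49.9% of all genes changed (26.2% higher, 23.6% lower). In ust221 they held 5 and 23 (13.6% of all genes; 6.99% higher, 6.65% lower), in ust222 0 (0.0164%; 0.0109% higher, 0.00545% lower), and in ust223 19 and 2 (11.2%; 7.84% higher, 3.32% lower). Of the rises, 25 of the 38 in ok302 and 11 of the 19 in ust223 were astacin genes. In that fit N2 had 2 libraries and ust222 had 1, which was assumed to vary like the other groups.

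Of the 3 vet genes tested, 2 fell in ust221, where 0.761% of all genes fell. Relative to N2, vet-6 fell (log2 fold change -3.89 ± 0.84, edgeR adjusted p = 0.0380; 0.343 ± 0.174 CPM in ust221 and 5.03 ± 5.4 in N2, n = 3 each) and vet-2 fell (-1.50 ± 0.26, edgeR adjusted p = 0.0174; 4.13 ± 0.544 and 11.7 ± 1.46 CPM). In ok302, where 15.4% of all genes fell, vet-2 fell (-1.41 ± 0.26, edgeR adjusted p = 0.00191). In the 12 libraries vet-6, vet-1 and vet-2 stood at -2.44 ± 0.43, -2.22 ± 0.67 and -1.50 ± 0.25 in ust221. In ust223 vet-6 was not called with all libraries (-0.09 ± 0.72) and stood at 1.41 ± 0.38 in the 12. The 12 libraries leave out N2 replicate 1, where vet-6 had 11.3 CPM, against 1.72 and 2.11 in N2 replicates 2 and 3. In ust223 it had 4.12 to 5.16 CPM.

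Most sdz genes, relatives of sdz-28 by name and not by sequence, were not called by edgeR. Of 25 tested, sdz-24 (1.24 ± 0.37) and sdz-27 (1.42 ± 0.33) rose and sdz-37 (-2.52 ± 0.46) fell in ok302 (edgeR adjusted p = 0.0279, 0.00801 and 0.00195). In ok302 8.45% of all tested genes rose and 15.4% fell, so these counts are near or below those shares. In ust221, where 0.761% of all genes fell, sdz-14 fell (-2.95 ± 0.68, edgeR adjusted p = 0.0451; 0.277 ± 0.0546 CPM in ust221 and 2.16 ± 2.00 in N2). At an unadjusted p under 0.05 stood 9 of the 25 in ok302 and 10 in ust221, and DESeq2 called 6 and 4. The list median was -0.87 in ok302, -1.39 in ust221, 0.26 in ust222 and 0.64 in ust223, beside 0.10, -0.09, -0.17 and -0.08 for all genes. In the 12 libraries these medians were 0.13, -0.92, -0.69 and 1.34, beside 0.39, 0.09, -0.05 and 0.04. There sdz-14 stood at 1.44 ± 0.43 in ust223. N2 replicate 1, which that fit leaves out, had 4.46 CPM of sdz-14, against 0.930 and 1.08 in N2 replicates 2 and 3.

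Transcription factors of embryonic cell fates included 24 tested zygotic lineage regulators, of which 2 fell in ok302, where 15.4% of all genes fell, and 2 in ust221, where 0.761% did. They were the same genes: lin-26, needed for epidermal fate (-1.02 ± 0.15 in ok302, edgeR adjusted p = 0.000696; -1.04 ± 0.15 in ust221, 0.0108), and die-1, a zinc finger gene of morphogenesis (-0.98 ± 0.25, 0.0132; -1.26 ± 0.25, 0.0290). The median was -0.31 in ok302, -1.23 in ust221, 0.01 in ust222 and -0.16 in ust223, and in the 12 libraries 0.66, -0.36, -0.35 and 0.84, with the sign turned in ok302, ust222 and ust223. In the 12 libraries 6 of 24 rose and 2 fell in ok302, where 26.2% of all genes rose and 23.6% fell. In ust221 3 fell, where 6.65% of all genes fell, and in ust223 6 rose, where 7.84% of all genes rose. The largest rises called in ust223 were ceh-36 (2.99 ± 0.83), nhr-25 (1.56 ± 0.33) and ceh-13 (1.31 ± 0.36). Upstream of end-1 and end-3, the GATA-type genes med-1 and med-2 had 4 and 78 counts over all libraries and tbx-35 had 9. How multiply matching reads were counted is not given, so few counts of med-1 and med-2 need not mean little RNA.

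Among paralogs of the 10 genes, the T-box gene tbx-9, which acts in embryonic body morphogenesis, fell in ok302 (-1.98 ± 0.22, edgeR adjusted p = 0.000176; 7.69 ± 0.875 CPM in ok302 and 30.4 ± 6.31 in N2) and in ust221 (-1.18 ± 0.22, 0.0223). Of 11 T-box genes tested, tbx-33 also fell in ok302 (-1.36 ± 0.43, edgeR adjusted p = 0.0344), and 2 of 11 is near the 15.4% of all genes that fell there. The only REF-1 family gene tested was ref-1, which edgeR called in 0 of the 4 alleles (-0.88 ± 0.45 in ok302, -1.52 ± 0.46 in ust221). In ust221 it was under an unadjusted p of 0.05 and was called by DESeq2. Of 34 tested astacin genes, relatives of hch-1, 7 rose and 0 fell in ok302, where 8.45% of all genes rose and hch-1 stood at -3.06 (-0.92 in the 12 libraries). In ust221 and ust223, where 1.03% and 1.13% of all genes rose, 1 astacin gene rose in each. That gene was nas-11 in both (0.97 ± 0.22, edgeR adjusted p = 0.0394; 1.11 ± 0.22, 0.0223), and it also rose in ok302 (1.37 ± 0.22, 0.000981). The largest rises in ok302 were nas-4 (2.69 ± 0.84), nas-8 (2.32 ± 0.58) and nas-5 (2.21 ± 0.54; edgeR adjusted p = 0.0345, 0.0123 and 0.0103). In the 12 libraries the median log2 fold change of the astacin genes was 1.98 in ok302, 0.48 in ust221, 0.01 in ust222 (1 library) and 0.83 in ust223. The medians of all genes were 0.39, 0.09, -0.05 and 0.04. Beside the astacin genes, the molting and larval cuticle genes summed to 1657 to 2030 CPM in ok302, 83.3 to 263 in ust221, 148 to 2467 in ust222, 487 to 927 in ust223 and 186 to 2488 in N2. Their part in the result was not tested.

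Maternal regulators of the early embryo, whose RNA is made in the oocyte, were in another order than the zygotic genes. Of 22 tested, 21 fell in ok302 and 7 in ust221, and 0 were called by edgeR in ust222 (16 at an unadjusted p under 0.05, 2 by DESeq2) and in ust223 (8 and 4). In ok302 the largest falls were nos-2 (-2.06 ± 0.17, edgeR adjusted p = 4.92e-05), oma-2 (-1.79 ± 0.19, 0.000116) and pop-1 (-1.73 ± 0.53, 0.0319), and in ust221 mom-2 (-1.04 ± 0.21, 0.0296), mex-6 (-0.98 ± 0.16, 0.0158) and mex-3 (-0.97 ± 0.19, 0.0244). The list summed to 2451 to 2913 CPM in ok302, 4023 to 4368 in ust221, 4445 to 5744 in ust222, 5009 to 6229 in ust223 and 5778 to 8294 in N2. So ok302 lay lowest in summed maternal RNA, while ust221 had the lowest mean of the summed 9 zygotic genes, although ust222 replicate 2 lay within its range and end-3 was lowest in ust223. In N2 the library highest in zygotic genes, replicate 1, was the lowest of the 3 in maternal RNA. Among 15 genes of the oocyte and eggshell, 13 fell in ok302 and 2 in ust221, and perm-4 rose in ust223. Their sums were 4450 to 6020 CPM in ok302, 6869 to 9952 in ust221, 8051 to 8439 in ust222, 11347 to 13269 in ust223 and 9345 to 12459 in N2. In ok302 8.45% of all genes rose and 15.4% fell. In ust221 1.03% rose and 0.761% fell, and in ust223 1.13% and 0.227%. Of 22 sperm genes 4 rose in ok302, and 0 were called by edgeR in ust221 (0 at an unadjusted p under 0.05, 0 by DESeq2), ust222 (3 and 1) and ust223 (0 and 0). Of 25 molting genes 3 rose and 1 fell in ok302, which is near or below the shares of all genes in ok302. Yet 23 of the 25 had a log2 fold change above 0 there, with a median of 1.13 beside 0.10 for all genes. The summed level of this list spread from 186 to 2488 CPM among the N2 libraries, so few calls need not mean little change. By edgeR 0 molting genes were called in ust221 (15 at an unadjusted p under 0.05, 10 by DESeq2), ust222 and ust223 (0 and 0 each). Of 8 adult genes 1 rose in ok302, which is near the share of all genes there, 3 in ust221 and 2 in ust223. Among 7 other pes genes, named like pes-10 for embryonic expression patterns, pes-5 fell in ok302 (-1.77 ± 0.27, edgeR adjusted p = 0.000735), and 0 were called by edgeR in ust221 (2 at an unadjusted p under 0.05, 2 by DESeq2), ust222 and ust223 (0 and 0 each). Across the 15 libraries the mean level of these pes genes ran against the members. Pearson's r was -0.70 with the sum of the 9 and -0.79 with hch-1. The vet genes had 0.93 and 0.97 and the lineage regulators 0.91 and 0.91, all given as a description. These values describe list means, and single genes called in ust221 differed. In N2 replicate 1, where the members were high, vet-6 (11.3 CPM) and die-1 (58.9 CPM) were also highest among the N2 libraries. There vet-2 was lowest (10.3 CPM, beside 13.2 and 11.6), and lin-26 lay between the other N2 libraries (87.6 CPM, beside 94.9 and 78.8).

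**Figure D5:**
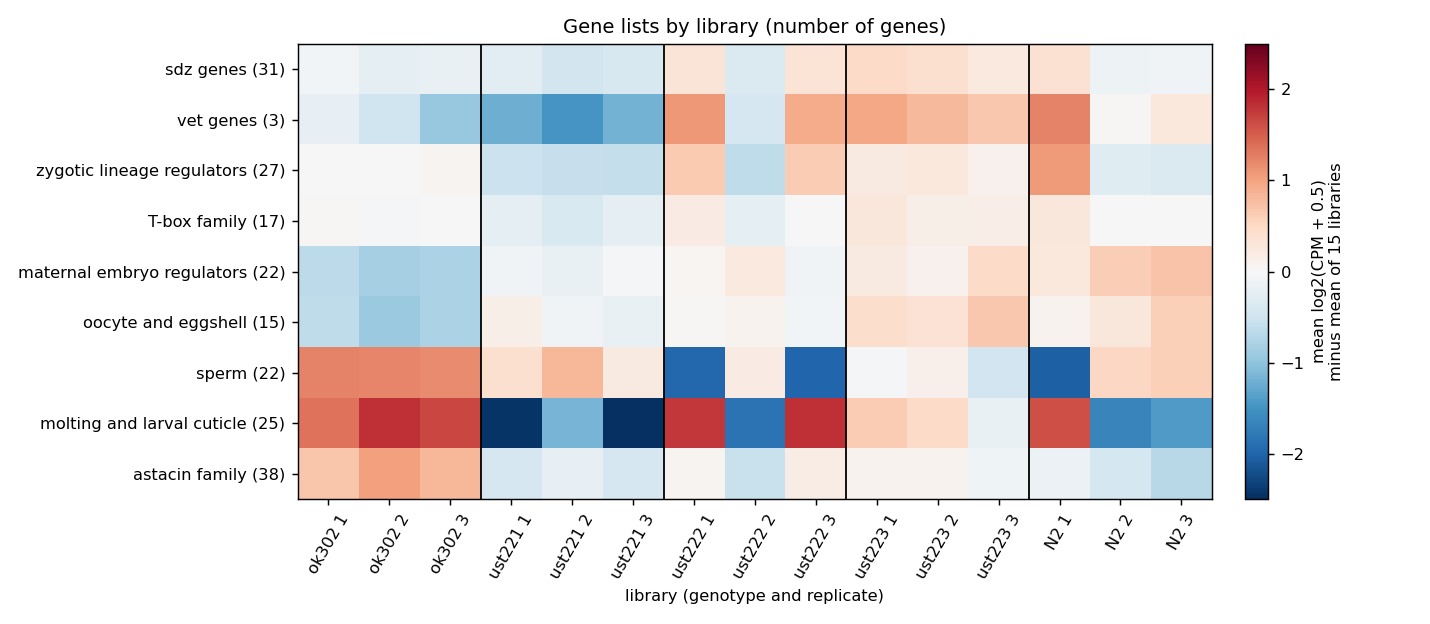
Mean log2(CPM + 0.5) of each gene list drawn, in each library, minus its mean over the 15 libraries. The number of genes in each list is in brackets, and the other pes, REF-1 and adult lists are not drawn. The vet genes and lineage regulators lie above their means in ust223, in ust222 replicates 1 and 3 and in N2 replicate 1. The vet genes also do so in N2 replicates 2 and 3, and the lineage regulators, by little, in ok302 replicates 2 and 3. In ust222 replicates 1 and 3 and N2 replicate 1 the sperm genes lie below their mean, as do the other pes genes, which the figure leaves out. Maternal and oocyte genes are low in ok302.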

How the data were processed

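The authors deposited 1 table of raw counts per gene for the 15 libraries (TRIzol RNA, poly-T selection and the NEBNext Ultra kit, per the labels' protocols). Alignment software listed in the submitters' processing notes is HISAT2 2.0.5. Which program counted reads, whether it used strand, how it treated multiply matching reads, and which build and annotation it used is not given in the sources used here. Coordinates are the deposited ones, with no build named, and for 9 of the 10 genes the start or end differs from Ensembl 115. Of 47111 identifiers, 44017 had a symbol in the reference name table.

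Counts were fitted with edgeR 4.0.16 in R 4.3.3: filterByExpr on genotype (17217 genes), TMM scaling and the quasi-likelihood test, with all 15 libraries and 5 genotype means in 1 model. Calls were made where p, adjusted by Benjamini and Hochberg's method over every tested gene, was under 0.05. The error given after a log2 fold change is a standard error, its size over the root of the F statistic. The fit was tested on simulated data for ok302 against N2 alone. The members and the gene lists were chosen with earlier results of these data known. The rule for named genes was the 10 members, puf-8, up to 3 called genes per direction, list and comparison by size of change, the 2 most abundant of each list (not all printed), and the 5 genes most like hch-1 and the 5 most like the sum of the 9 by Pearson's r. Outside it, emb-4, hlh-26, med-1, med-2 and tbx-35, and some values of rule genes in other comparisons or in the 12 libraries, were chosen after their values were seen. The comparisons share the N2 libraries. Alternatives were DESeq2 1.42.0, 2 other scalings, 2 other filters, the 6 libraries of a comparison, the replicate number as a block, leaving out each library, and the 12 libraries. Library totals were 20969800 to 29352254 counts. Intervals cover counting error alone, and PCR duplicates make even that too small. No sequences of the genes were used here.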

Additional observations from a re-analysis of the deposited data

How the results depend on the processing

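Counts of called genes moved by more than 1.5 times in many settings. In the 12 libraries, all genes called numbered 9152 in ok302 (4104 with 15 libraries), 2503 in ust221 (308), 3 in ust222 (1) and 2048 in ust223 (233), and genes of the 8 lists (5 embryonic, 3 of paralogs) 69 (37), 28 (14), 0 (0) and 21 (1). DESeq2 called 2101, 88 and 728 genes in ust221, ust222 and ust223, and 37, 3 and 7 of the lists. With library totals the counts were 1133, 2 and 360, and 26 list genes in ust221. In ust221, 732 genes were called with DESeq2 size factors, 525 with every gene of at least 1 count, 517 with CPM above 1 in 3 libraries and 162 with the replicate block. With only the 6 libraries of a comparison 1, 0 and 32 genes were called in ust221, ust222 and ust223, and 0 list genes in ust221 and ust223. Leaving out 1 library gave 2335 to 6918 genes in ok302, 83 to 1482 in ust221, 1 to 962 in ust222 and 85 to 537 in ust223, and 29 to 51, 3 to 23, 0 to 10 and 0 to 2 list genes. The cause was not tested. In ust222 the extremes were 962 without N2 replicate 1 and 607 without ust222 replicate 2. Among the named genes, 3 fold changes that were not called with 15 libraries turned and were called in the 12: sqt-3 at 2.97 in ok302 and 2.27 in ust223, and vet-6 at 1.41 in ust223. Of 325 alternative values of the members' fold changes, 257 moved by less than the spread between replicates and 68 by more.

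Replicate numbers were not taken as pairing the libraries, since no allele had all 3 of its same-numbered pairs with N2 at a correlation of deviations over 0.1. Of 30 same-numbered pairs 7 were over 0.1 (range -0.69 to 0.81), among them all 3 of ust221 with ust223 (0.20, 0.37 and 0.43). As a hint from the data, 9 of 15 libraries were closest to their own number. The replicate block gave 38 list genes in ok302 and 10 in ust221. Depth limits end-1, tbx-37, hlh-25 and hlh-27 most, at 3 counts a library being 0.0997 to 0.203 CPM.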
